A study of Nothobranchius furzeri with 16 samples.

Results

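The DNAJ genes encode the J-domain co-chaperones of Hsp70. They were described in the brain of the turquoise killifish Nothobranchius furzeri, an annual fish whose short life makes it a model of ageing, after injection of adults with the proteasome inhibitor bortezomib. Members were all gene models whose symbol begins with DNAJA, DNAJB or DNAJC and a digit and that reached at least 1 TPM in at least 8 of the 16 fish. TPM is a length-corrected transcript abundance that sums to the same total in every fish. Of 52 gene models with such a symbol, 50 met this minimum, among 18529 of 26739 gene models that did. All 50 were at 1 TPM or more in every fish, so that none entered through 1 treatment group alone. DNAJC5B and DNAJC22 stayed below the minimum and were not tested.

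The study measured the transcriptome of individual brains, 1 library per fish, and asked how it differs after the proteasome has been inhibited in the living animal. Fish were 12 to 14 weeks post hatch at treatment and came from 1 hatch, with males and females in each group and random allocation. In the treated group, 8 fish were injected intraperitoneally with 500 µM bortezomib on days 0, 6, 12, 18 and 24. The 8 vehicle fish received 1% DMSO in salt solution on the same days, in both groups at 10 µl per g of body weight, and brains were taken on the last day of a 4-week treatment. The sex of each fish is not given in the sources used here.

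Hsp70 binds exposed hydrophobic stretches of other proteins and releases them in a cycle driven by ATP. A J-domain protein delivers the client and, through its J domain, triggers ATP hydrolysis by Hsp70, while nucleotide exchange factors reset the cycle. Class A and class B members share a general architecture and act mainly in folding, refolding and the extraction of proteins from aggregates, whereas class C members share only the J domain and direct Hsp70 to special tasks, such as recycling of synaptic vesicle proteins, protein import into mitochondria or ribosome maturation. When the proteasome is blocked in cultured mammalian cells, undegraded proteins activate the heat shock response, and DNAJB1 is among its classical targets. Where 3 TPM values are set against 3 below, they are the lowest, the median and the highest fish, first of the bortezomib group and then of the vehicle group. Roles given are those of the mammalian proteins.

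The libraries carried the RNA of brain, but with uneven makeup. Of 6 listed neuron markers, 4 had the symbol of a row (SNAP25, ELAVL3, ELAVL4 and GAP43, 5 gene models). All 5 models were above 1 TPM, 1 of them, SNAP25 (2 OF 2), was called higher, and their sum was 2197 to 3493 TPM in bortezomib fish and 1429 to 2972 TPM in vehicle fish. The sum was lowest in vehicle replicates 2, 3 and 8 and, within the treated group, in bortezomib replicate 3. Of the oligodendrocyte markers, 1 of 3 tested models was called (MAG, higher, log2 fold change 0.76, limma adjusted p = 0.0404), with summed levels of 562 to 1011 TPM after bortezomib and 785 to 975 TPM after vehicle. Of the radial glia and astrocyte markers, 1 of 3 was called (GLUL (2 OF 2), lower, -0.28, adjusted p = 0.0394), with sums of 1886 to 3272 and 1788 to 2658 TPM. In both lists the other tested models were not called and the sums of the groups overlapped, so the called model does not stand for its list. The part of these differences in the DNAJ results was not tested. Pituitary hormone transcripts (summed GH1, PRL and POMCA) were at 100 TPM or more in 4 fish. These pituitary-positive fish were replicates 6 and 7 of the bortezomib group and 5 and 6 of the vehicle group, and results that change without them are given both ways. Bortezomib replicate 8 had the lowest value of its group in 44.3% of all tested genes, but in 9 of the 50 DNAJ gene models. In bulk tissue, fewer cells of a type and less RNA per cell cannot be told apart.

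Of the 50 DNAJ gene models, 3 were higher and 2 were lower in bortezomib fish, and 45 were not called. A gene was called when its Benjamini-Hochberg adjusted p, over all 18529 tested genes, was under 0.05 in limma's moderated test on log2(TPM + 1). The called share of DNAJ models was 10%, beside 4.86% of all tested genes, of which 3.61% were called higher and 1.25% lower. This gap depended on the processing. With median-of-ratios and upper-quartile scaling, 3 of 50 DNAJ models were called, beside 4.99% and 5.16% of all tested genes. With quantile normalization 5 of 50 were called, beside 6.00%, and with sample quality weights 6 of 50, beside 10.2%. DNAJA2, DNAJC4 and one DNAJC7 model rose, and DNAJB5 (2 OF 2) and DNAJB1B fell. In class A, 1 of 6 models rose and none fell. In class B, 2 of 14 fell and none rose. In class C, 2 of 30 rose and none fell.

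Changes of most members were small, as over all tested genes, where the median size of the log2 fold change was 0.15. The log2 fold change lay within 0.2 of 0 in 34 of 50 models and beyond 0.5 in 4. It was above 0 in 39 of 50 models (78%), beside 56.6% of all tested genes, and its median was 0.12, beside 0.035 over all tested genes. Without bortezomib replicate 8, it was above 0 in 40 of 50 models, beside 63.2% of all tested genes, and its median was 0.12, beside 0.069. With median-of-ratios scaling, upper-quartile scaling or quantile normalization it was above 0 in 35 of 50 models, beside 51.6%, 49.4% and 47.4% of all tested genes. The calls over all genes moved from 669 higher and 232 lower to 537 and 388, 502 and 455, and 549 and 563 under these scalings, and those of DNAJ models from 3 and 2 to 2 and 1, 2 and 1, and 3 and 2. The medians by class were 0.10 for class A, 0.13 for class B and 0.13 for class C. At an unadjusted p under 0.05, 15 DNAJ models were higher and 2 lower, beside 14.2% and 6.94% of all tested genes. Every bortezomib fish was above every vehicle fish in 1 DNAJ model, DNAJA2, beside 1.08% of all tested genes, and every bortezomib fish was below every vehicle fish in 1, DNAJB5 (2 OF 2), beside 0.221%. For 37 of the 45 models not called, the 95% interval of the log2 fold change stayed between -0.5 and 0.5, and for 8 it reached beyond. Without the 4 pituitary-positive fish, 1 DNAJ model was higher and 1 lower. In this fit of 12 fish, which has less power, 1.75% of all tested genes were called, beside 4.86% with all fish.

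**Figure D1:**
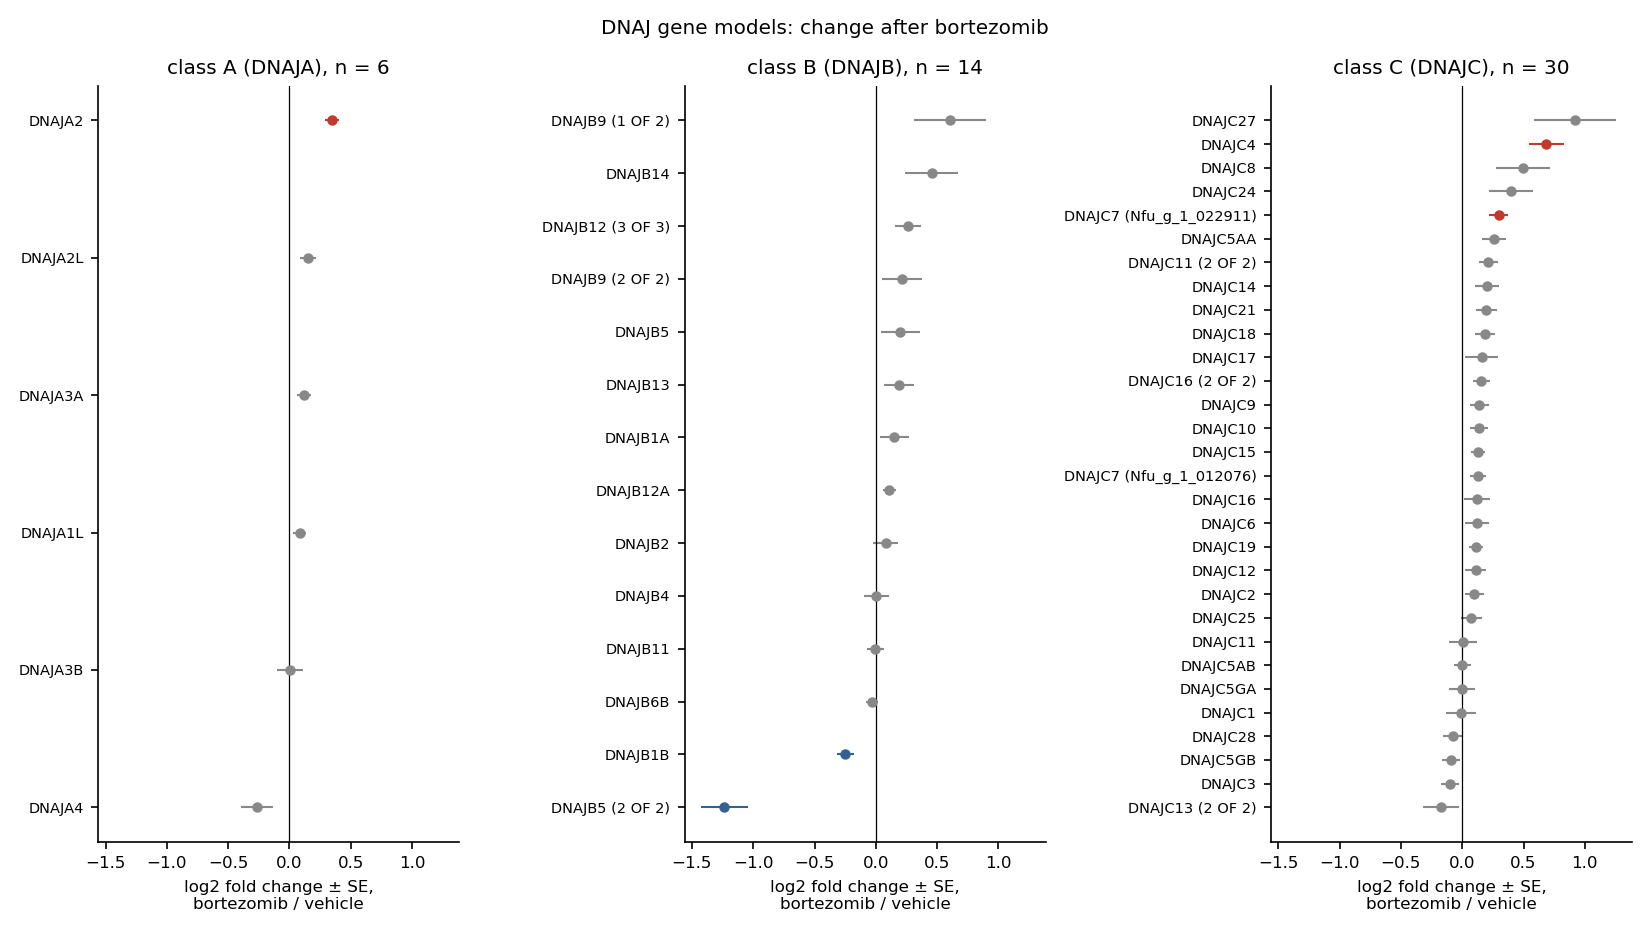
Log2 fold change of bortezomib over vehicle (x axis, log2(TPM + 1) scale, point with SE, n = 8 fish a group) for each of the 50 DNAJ gene models, sorted within class A, B and C. Red points are the 3 models called higher, blue points the 2 called lower and grey points the 45 not called, most of which lie between 0 and 0.2.

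DNAJB5 (2 OF 2) showed the largest fall of the family. DNAJB5 is a class B relative of DNAJB1 that in mammals also forms a redox-sensitive complex with a class II histone deacetylase. This gene model (Nfu_g_1_006784) stood at 72.4, 88.7 and 123 TPM (lowest, median and highest) in bortezomib fish and at 131, 239 and 329 TPM in vehicle fish. The groups did not overlap, although vehicle replicates 8 and 2, at 131 and 134 TPM, came close to the highest treated fish. The log2 fold change was -1.23 (SE 0.19, limma adjusted p = 0.00116), or 0.425 times the vehicle level, and it was -1.05 (adjusted p = 0.0250) without the pituitary-positive fish. Vehicle fish spread more than treated fish, with coefficients of variation of 33.7% and 18.6%. The 4 highest vehicle fish were replicates 4 to 7, which were also the 4 highest vehicle fish in CEBPD, a transcription factor induced by stress and glucocorticoids, at 155 to 285 TPM against 40.3 to 112 TPM in the other 4. Of the 50 DNAJ models, 2 had these 4 vehicle fish highest, DNAJB5 (2 OF 2) and DNAJA4, beside 0.847% of all tested genes, and the part of these fish's CEBPD level in the DNAJB5 (2 OF 2) result was not tested.

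The second DNAJB5 model was less abundant and was not called. DNAJB5 (Nfu_g_1_009125) stood at 10.6, 18.9 and 23.3 TPM in bortezomib fish and at 10.6, 16.6 and 20.7 TPM in vehicle fish, with nearly the same range in both groups. Its log2 fold change was 0.20 (SE 0.16, adjusted p = 0.486). The log2 difference between the copies, DNAJB5 minus DNAJB5 (2 OF 2), was -2.27 ± 0.33 after bortezomib (SD, n = 8) and -3.71 ± 0.49 after vehicle. It was thus 1.43 higher after bortezomib (two-sided exact permutation p = 0.00031, adjusted over 10 pairs of copies 0.0031). Every treated fish but replicate 1, at -2.83, lay above every vehicle fish, the highest of which, replicate 8, was at -2.61. This pair was added after the symbols were seen, with earlier results known, so its test is not independent support for the call.

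DNAJB1, or HSP40, is the stress-inducible class B partner of Hsp70 in the extraction of proteins from aggregates. Killifish carry an a and a b copy, and the b copy fell slightly. DNAJB1B (Nfu_g_1_007045) was at 33.6, 36.7 and 46.1 TPM in bortezomib fish and at 39.6, 46.0 and 48.9 TPM in vehicle fish. Of the treated fish, 7 were below the lowest vehicle fish, and replicate 1 lay among the vehicle values. The log2 fold change was -0.25 (SE 0.068, limma adjusted p = 0.0448). This call lies near the threshold: it ended when any of 12 of the 16 fish was left out (adjusted p up to 0.0844), with median-of-ratios or upper-quartile scaling, and without the pituitary-positive fish, where the log2 fold change was -0.20 (adjusted p = 0.232).

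DNAJB1A (Nfu_g_1_007621) stood at 27.5, 32.3 and 40.8 TPM in bortezomib fish and at 21.5, 27.2 and 41.0 TPM in vehicle fish, so that the treated range lay inside the vehicle range. It was not called (log2 fold change 0.15, SE 0.12, adjusted p = 0.490). The difference DNAJB1A minus DNAJB1B was -0.22 ± 0.22 in bortezomib fish and -0.62 ± 0.27 in vehicle fish, a difference of 0.40 (exact permutation p = 0.00684, adjusted over 10 pairs 0.0275). The b copy was the more abundant in all 8 vehicle fish and in 7 of 8 treated fish, bortezomib replicate 8 being the exception. This difference no longer passed without bortezomib replicate 3 (adjusted p = 0.0544) or without the pituitary-positive fish (0.0577).

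DNAJA2, a class A partner of constitutive Hsp70 in refolding and disaggregation, was the most abundant class A member and rose. It stood at 153, 167 and 180 TPM in bortezomib fish and at 114, 134 and 146 TPM in vehicle fish, without overlap. The log2 fold change was 0.35 (SE 0.055, limma adjusted p = 0.00172), and 0.32 (adjusted p = 0.0143) without the pituitary-positive fish. Both groups were tight, with coefficients of variation of 5.56% in bortezomib fish and 7.68% in vehicle fish. DNAJA2L, the next most abundant class A model, was at 115, 130 and 141 TPM in bortezomib fish and at 101, 114 and 140 TPM in vehicle fish. Its groups overlapped and it was not called (0.15, SE 0.065, adjusted p = 0.187). DNAJA2 minus DNAJA2L was 0.38 ± 0.070 in bortezomib fish and 0.18 ± 0.18 in vehicle fish, a difference of 0.19 (exact permutation p = 0.00824, adjusted over 10 pairs 0.0275). This did not pass without bortezomib replicate 1 (adjusted p = 0.0658), without bortezomib replicate 3 (0.0627) or without the pituitary-positive fish (0.0595). The DNAJA2 pair, too, was added after the symbols were seen, with earlier results known.

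DNAJC7 (TPR2) is a class C protein with TPR repeats that bind both Hsp70 and Hsp90, and 2 rows of the table carry its symbol. Whether they are 2 genes or parts of 1 gene cannot be told from the table, and reads could be split between them. DNAJC7 (Nfu_g_1_022911) was at 36.2, 41.8 and 46.1 TPM in bortezomib fish and at 26.0, 34.6 and 39.4 TPM in vehicle fish, and bortezomib replicate 1 lay among the vehicle values. It rose by 0.30 (log2, SE 0.077, limma adjusted p = 0.0362). The call ended in 7 of the 16 fits that left out 1 fish (adjusted p up to 0.0753), with median-of-ratios or upper-quartile scaling, with the first principal component of all tested genes as a covariate (adjusted p = 0.0746), and without the pituitary-positive fish (0.29, adjusted p = 0.151). DNAJC7 (Nfu_g_1_012076), at 72.4, 81.1 and 93.8 TPM against 65.8, 74.4 and 81.1 TPM, was not called (0.13, SE 0.066, adjusted p = 0.279). The difference between the rows did not pass (-0.17, exact permutation p = 0.0371, adjusted over 10 pairs 0.0743), but it did without bortezomib replicate 8 (adjusted p = 0.0311) or vehicle replicate 3 (0.0238). In every other alternative it did not pass, with permutation adjusted p up to 0.307.

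**Figure D2:**
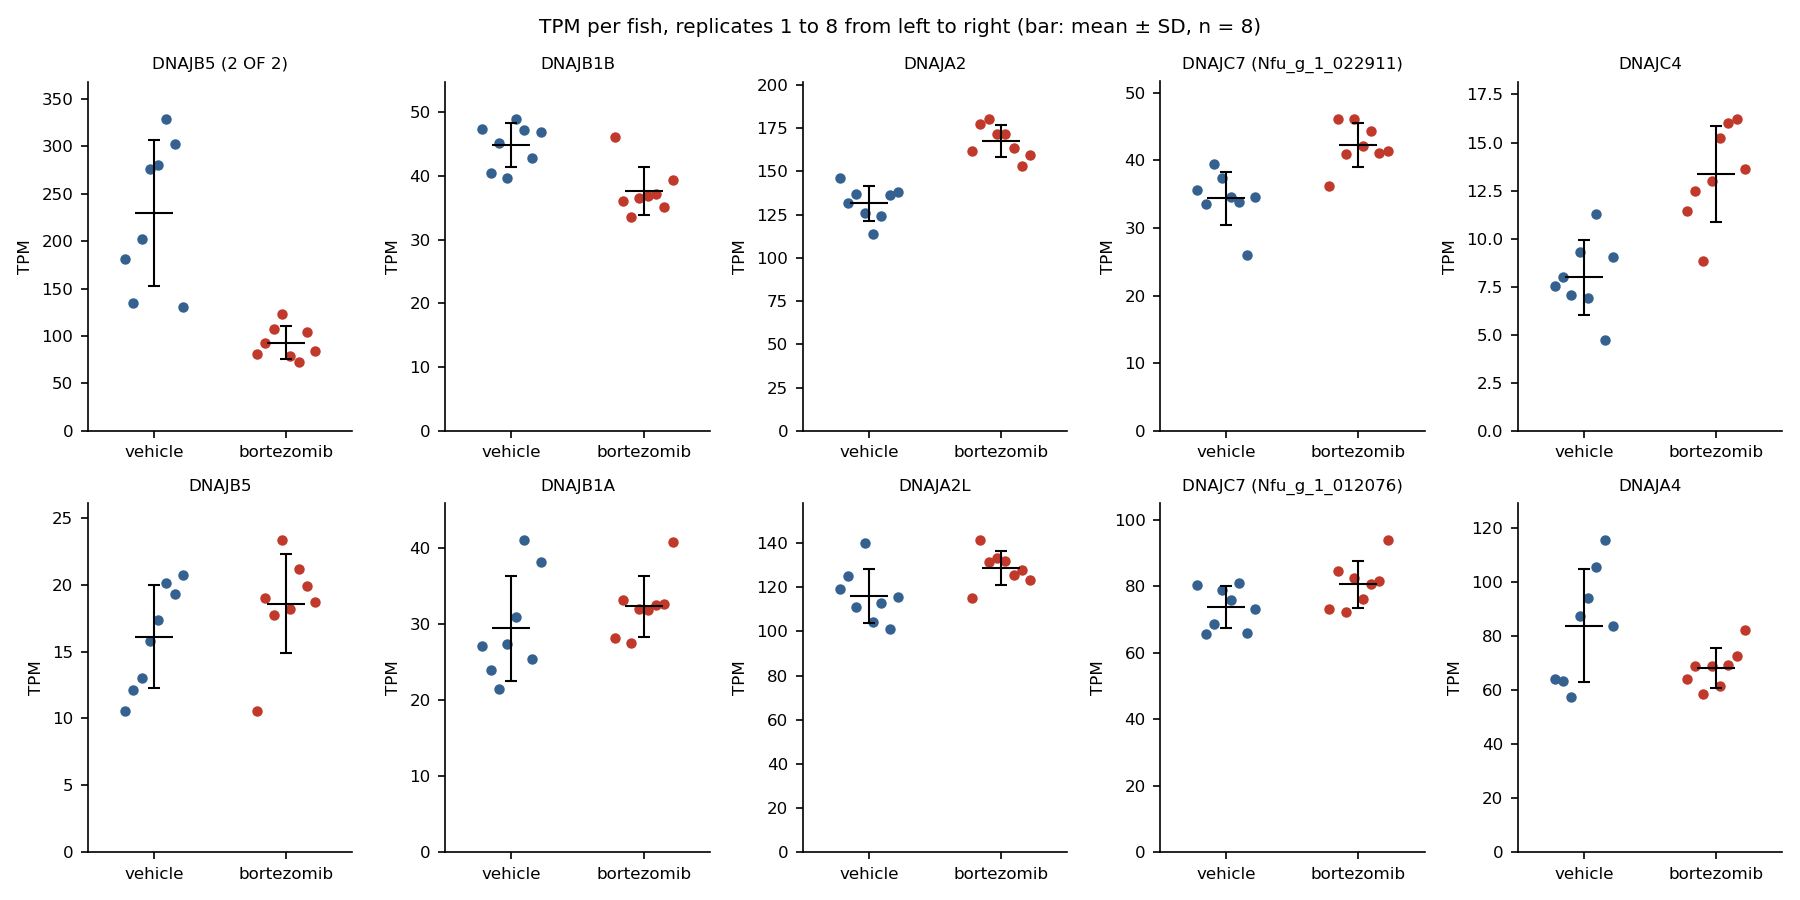
TPM (y axis, from 0) in each vehicle fish (blue) and bortezomib fish (red), replicates 1 to 8 from left to right, with the mean and SD (n = 8). The upper row shows the 5 called models and the lower row their copies and DNAJA4, in which the groups overlap; DNAJB5 (2 OF 2) and DNAJA2 are the models without overlap.

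No other cytosolic member was called. DNAJB6B, of the family that suppresses polyglutamine aggregation, was at 46.3, 47.0 and 50.0 TPM against 42.8, 48.5 and 54.0 TPM (log2 fold change -0.031, 95% interval -0.14 to 0.076, adjusted p = 0.756). DNAJB2 (HSJ1), a neuronal member with ubiquitin-interacting motifs that hands clients to the proteasome, was at 20.5, 22.5 and 28.0 TPM against 17.1, 21.2 and 27.7 TPM (0.079, interval -0.14 to 0.29, adjusted p = 0.684). DNAJB4, a close relative of DNAJB1, was at 46.9, 58.6 and 72.2 TPM against 45.6, 60.1 and 68.2 TPM (0.0037, interval -0.21 to 0.22, adjusted p = 0.988). Each of these intervals lies within 0.3 of 0.

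DNAJA4 and DNAJC24 are named after their values were seen. DNAJA4, a heat-inducible class A member, was at 58.8, 68.9 and 82.3 TPM in bortezomib fish and at 57.6, 85.7 and 115 TPM in vehicle fish. Vehicle replicate 3, at 57.6 TPM, lay just below the lowest treated fish, replicates 1 and 2 lay among the treated values, and replicates 4 to 8 lay above all treated fish. It was not called (-0.26, SE 0.13, adjusted p = 0.262). DNAJC24 (DPH4), a factor of diphthamide synthesis, was at 6.37, 9.74 and 12.9 TPM against 3.65, 7.77 and 10.0 TPM and was not called (0.40, SE 0.18, adjusted p = 0.210).

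Of 7 mitochondrial members, 1 was called, beside 4.86% of all tested genes, and their median log2 fold change was 0.12. All 7 lay above 0 (5 of 7 under each of the other scalings), beside 78% of the 50 DNAJ models and 56.6% of all tested genes. DNAJC4, a small membrane-spanning member, was at 8.86, 13.3 and 16.2 TPM in bortezomib fish and at 4.73, 7.78 and 11.3 TPM in vehicle fish. Bortezomib replicate 3 lay among the vehicle values and the other 7 treated fish, at 11.4 TPM or more, lay above all of them. DNAJC4 rose by 0.69 (log2, SE 0.14, limma adjusted p = 0.0121), and without the pituitary-positive fish the value was 0.65 (adjusted p = 0.0567). DNAJC11 (2 OF 2), a protein tied to the complex that shapes the cristae, was at 12.9, 14.9 and 17.0 TPM against 11.5, 12.5 and 14.9 TPM and was not called (0.21, SE 0.075, adjusted p = 0.109).

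Of the 14 endoplasmic reticulum (ER) members, none was called, with a median log2 fold change of 0.15. At an unadjusted limma p under 0.05, 4 were higher and none lower, beside 15 and 2 of the 50 DNAJ models. Over all tested genes the shares were 14.2% higher and 6.94% lower. Lumenal members serve BiP, the Hsp70 of the ER, and some are induced by unfolded proteins there. DNAJB9 (ERdj4), one of the classical induced members, has 2 models here. DNAJB9 (1 OF 2) was at 21.8, 53.9 and 68.0 TPM in bortezomib fish and at 12.6, 33.6 and 55.7 TPM in vehicle fish (0.61, interval -0.0087 to 1.22, adjusted p = 0.242). DNAJB9 (2 OF 2) was at 11.2, 15.7 and 24.3 TPM against 7.38, 13.4 and 16.4 TPM (0.21, interval -0.13 to 0.55, adjusted p = 0.466). Both overlapped widely, and their intervals reach changes beyond 0.5.

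DNAJB11 (ERdj3), a lumenal partner of BiP, was at 26.1, 28.9 and 32.8 TPM against 25.6, 29.2 and 33.2 TPM (-0.0027, interval -0.14 to 0.14, adjusted p = 0.986). DNAJC3 (p58IPK), another BiP partner and target of the unfolded protein response, was at 4.92, 5.54 and 6.04 TPM against 5.13, 5.78 and 6.95 TPM (-0.10, interval -0.26 to 0.054, adjusted p = 0.447). For DNAJB11 the ranges nearly coincided, while for DNAJC3 they overlapped and the highest values were those of vehicle fish. DNAJB12 (3 OF 3), of ER membrane quality control, was at 25.1, 30.2 and 35.5 TPM against 18.1, 27.1 and 31.6 TPM (0.26, SE 0.11, adjusted p = 0.167).

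Its relative DNAJB14, named after its values were seen, was at 14.0, 23.0 and 28.7 TPM in bortezomib fish and at 7.76, 17.7 and 24.1 TPM in vehicle fish (0.46, SE 0.22, adjusted p = 0.233). The ER membrane members DNAJC18 and DNAJC16 (2 OF 2) were not called either. DNAJC18 was at 27.8, 33.4 and 35.3 TPM against 22.3, 29.2 and 32.9 TPM (0.19, SE 0.078, adjusted p = 0.182). DNAJC16 (2 OF 2) was at 29.5, 34.7 and 39.3 TPM against 28.1, 30.6 and 33.4 TPM (0.16, SE 0.068, adjusted p = 0.195).

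None of the 7 vesicle and endosome members was called. DNAJC5, the cysteine string protein of synaptic vesicles, keeps the SNARE protein SNAP25 folded and is needed to maintain nerve terminals. DNAJC5AA was the most abundant DNAJ model of all, at 279, 310 and 342 TPM in bortezomib fish and at 172, 269 and 304 TPM in vehicle fish (0.26, SE 0.098, adjusted p = 0.135). DNAJC5AB was at 34.3, 41.3 and 47.6 TPM against 37.1, 40.9 and 45.6 TPM (0.0012, interval -0.14 to 0.14, adjusted p = 0.993). The log2 difference between the copies was 2.88 ± 0.11 in bortezomib fish and 2.62 ± 0.28 in vehicle fish, a difference of 0.26 that narrowly missed the threshold (exact permutation p = 0.0208, adjusted over 10 pairs 0.0521). It passed without bortezomib replicate 8 (adjusted p = 0.0311), vehicle replicate 6 (0.0109) or vehicle replicate 8 (0.0256). In every other alternative it did not pass, with permutation adjusted p up to 0.105.

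DNAJC6 (auxilin), which uncoats clathrin-coated vesicles in neurons, was at 54.7, 73.6 and 95.3 TPM against 54.0, 68.4 and 77.3 TPM (0.12, interval -0.084 to 0.32, adjusted p = 0.495). DNAJC27, a Rab-like GTPase with a J domain, had the largest fold change above 0 of the family. It was at 7.02, 26.3 and 28.7 TPM in bortezomib fish and at 4.41, 11.01 and 26.2 TPM in vehicle fish. Of the treated fish, 7 lay at 22.6 TPM or above and replicate 3 alone was low, while vehicle fish were spread over the whole range. It was not called (0.92, SE 0.33, interval 0.21 to 1.62, adjusted p = 0.123), but it was called without bortezomib replicate 3 (1.14, adjusted p = 0.0308) and with sample quality weights (0.99, adjusted p = 0.0325).

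None of the 5 ribosomal and nuclear members was called, and their median was 0.16. All 5 lay above 0, also under the other scalings, beside 78% of the 50 DNAJ models and 56.6% of all tested genes. DNAJC8, associated with the spliceosome, was the second most abundant class C model. It was at 149, 276 and 317 TPM in bortezomib fish and at 95.6, 201 and 286 TPM in vehicle fish (0.49, SE 0.22, adjusted p = 0.211). DNAJC21, a factor of 60S ribosome maturation, was at 15.8, 19.5 and 22.9 TPM against 15.1, 17.2 and 18.8 TPM (0.20, SE 0.084, adjusted p = 0.191). In both models the groups overlapped.

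The other 21 members were not called, with log2 fold changes from -0.18 to 0.20 and adjusted p from 0.205 to 0.985. They were DNAJA1L, DNAJA3A, DNAJA3B and DNAJB12A, DNAJB13, and 16 class C models (DNAJC1, DNAJC2, DNAJC5GA, DNAJC5GB, DNAJC9, DNAJC10, DNAJC11, DNAJC12, DNAJC13 (2 OF 2), DNAJC14, DNAJC15, DNAJC16, DNAJC17, DNAJC19, DNAJC25 and DNAJC28). Their mean levels ran from 1.70 TPM for DNAJC5GB to 93.8 TPM for DNAJA1L, a farnesylated cytosolic member. The lowest fold change among them was that of DNAJC13 (2 OF 2), the endosomal protein RME-8, for which bortezomib replicate 8, at 12.2 TPM, was the lowest fish of the study and the other treated fish were at 21.4 to 31.6 TPM.

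Copies of the same gene were compared in 10 pairs, 6 chosen by their suffixes or shared symbol and 4 added after the symbols of the table were seen. The difference between copies passed in 3 pairs, those of DNAJB5, DNAJB1 and DNAJA2. In 1 of them, DNAJB5, it also passed without the pituitary-positive fish (1.27, exact permutation adjusted p = 0.0433). Each of the 3 holds a called model, and the DNAJB5 and DNAJA2 pairs are among those added. Earlier results of these data were known when the tests were chosen, so these pairs are not independent support for the calls. The copies of DNAJB9, DNAJA3, DNAJC5G, DNAJC11 and DNAJC16 gave adjusted p from 0.322 to 0.763. A pair that misses the threshold is not shown to act alike: for DNAJB9 the difference between groups was 0.39, and the SD between fish of the log2 difference was 0.75 after bortezomib and 0.86 after vehicle.

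**Figure D3:**
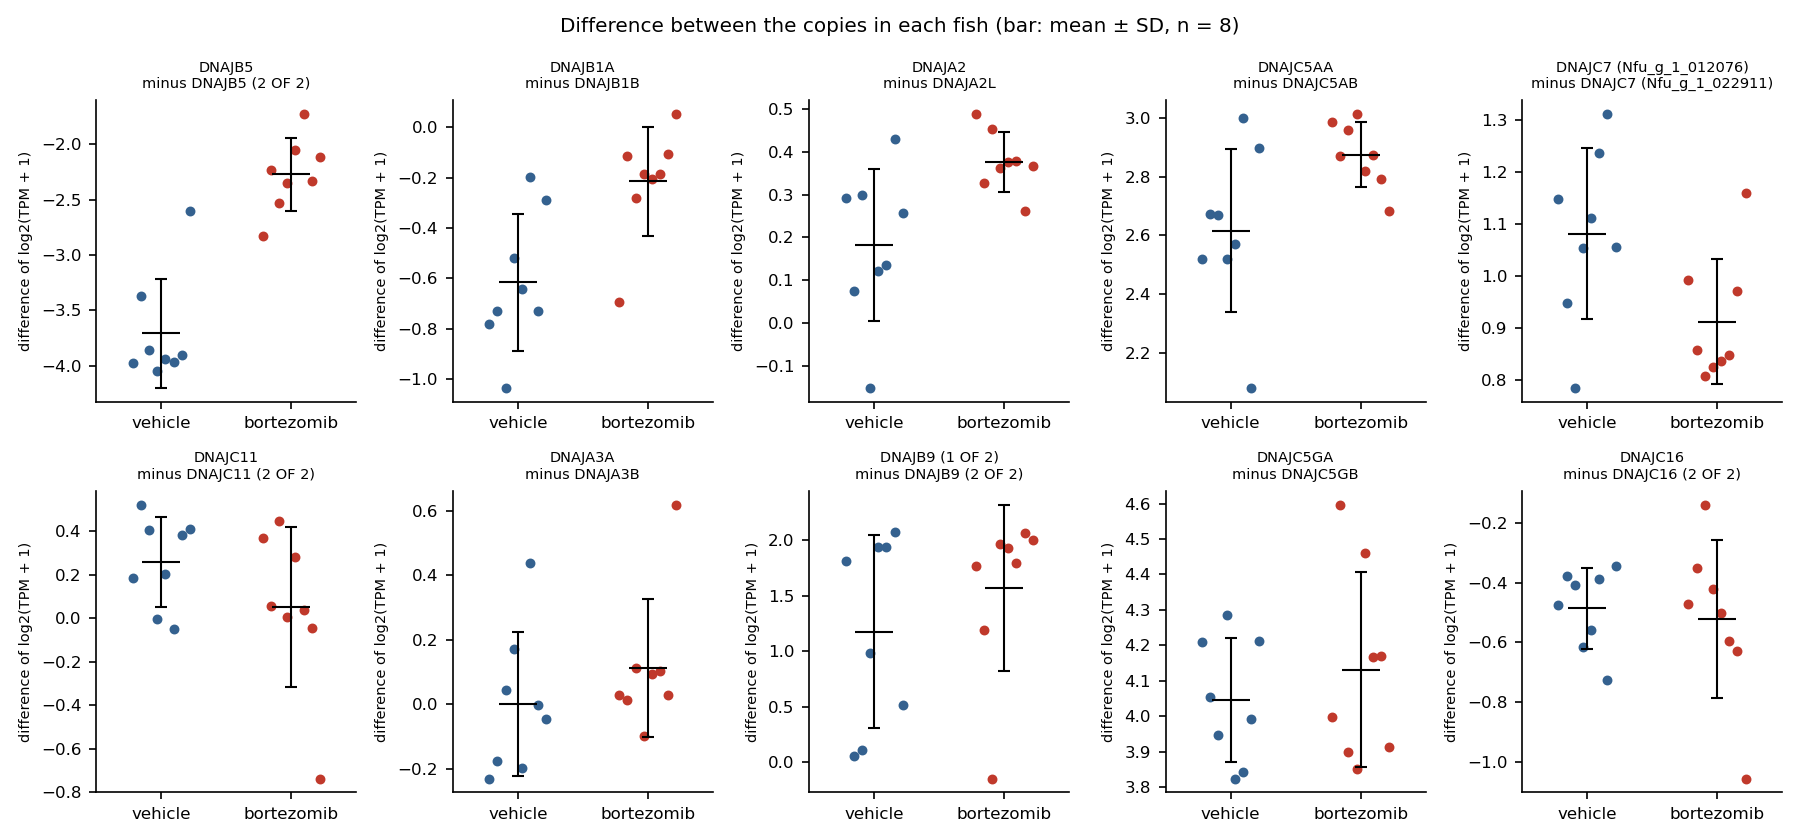
Difference of log2(TPM + 1) between the copies (y axis, not from 0) in each vehicle fish (blue) and bortezomib fish (red) for the 10 pairs, replicates 1 to 8 from left to right, with the mean and SD (n = 8). The pairs are sorted by p; the DNAJB5 pair, with means of -3.71 and -2.27, differs most between the groups.

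Several members, most of them with a wide spread between fish, shared the same lowest fish. In DNAJC27, DNAJB9 (1 OF 2), DNAJB14, DNAJC8, DNAJC24 and DNAJC18, the 3 lowest vehicle fish were replicates 2, 3 and 8 and the lowest treated fish was replicate 3. These are also the fish of each group in which the summed neuron markers were lowest. Of the 50 DNAJ models, 6 (12%) showed this order, beside 6.59% of all tested genes. The coefficient of variation over vehicle fish was 59.4% for DNAJC27, 46.5% for DNAJB9 (1 OF 2), 37.5% for DNAJB14, 36.7% for DNAJC8, 32.2% for DNAJC24 and 12.0% for DNAJC18. The same fish scored lowest on the first principal component of all tested genes (26.6% of the variance). Vehicle replicates 2, 3 and 8 were at -0.49, -0.37 and -0.30, and bortezomib replicate 3 was at -0.33. This component as a covariate thus takes up the order by which the 6 models were picked, and smaller changes with it decide nothing. With it, the log2 fold changes were 0.26 for DNAJC27, 0.014 for DNAJB9 (1 OF 2) and 0.042 for DNAJB14. They were 0.049 for DNAJC8, 0.085 for DNAJC24 and 0.066 for DNAJC18. Those of DNAJB5 (2 OF 2) and DNAJA2, not picked by these fish, were -1.39 and 0.39, beside -1.23 and 0.35 without the covariate. Those of DNAJC4 and DNAJC7 (Nfu_g_1_022911), also not picked by them, were 0.56 and 0.28, beside 0.69 and 0.30 without it. DNAJB1B stayed called lower with the covariate, and the call of DNAJC7 (Nfu_g_1_022911) ended (limma adjusted p = 0.0746). Setting the called models beside the 6 decides nothing, because the 6 were picked by this order. The median of the 50 DNAJ models was 0.089 with the covariate, beside 0.12 without it. The part of neuron content in the values of these 6 models was not tested.

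**Figure D4:**
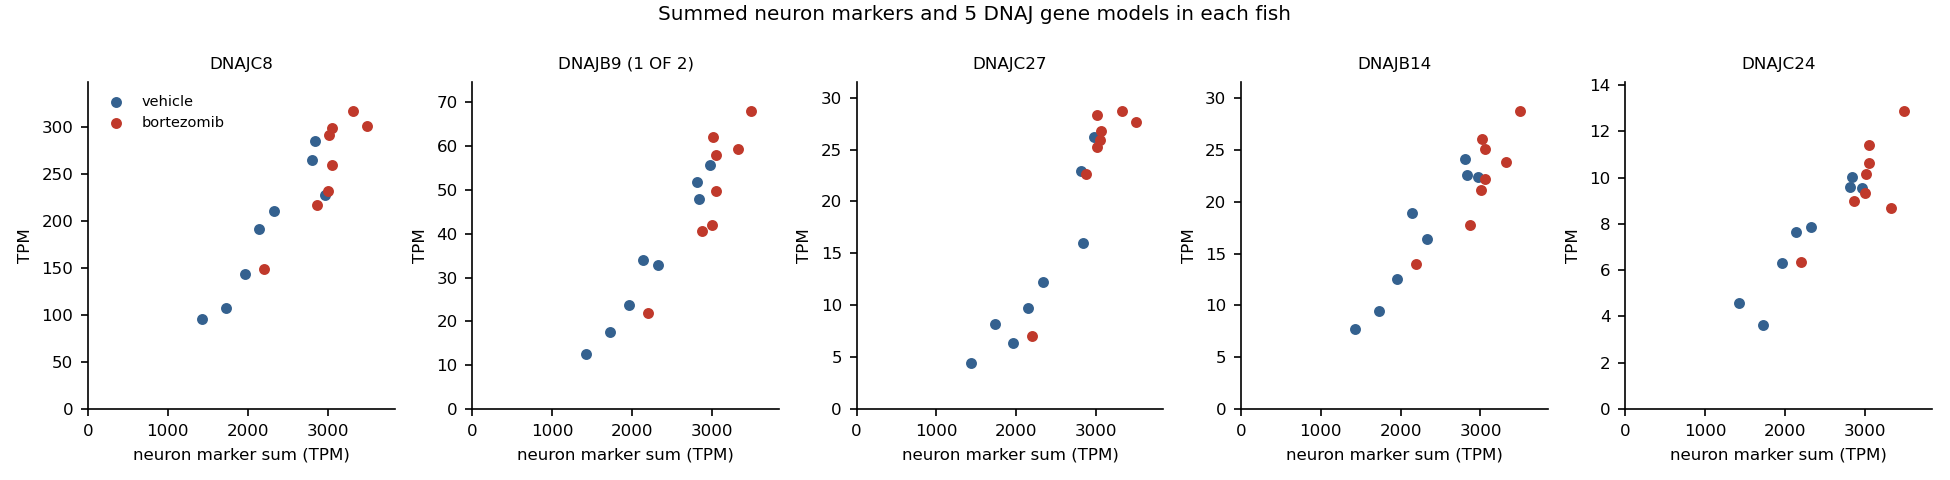
TPM of 5 DNAJ models (y axes, from 0) against the summed TPM of the neuron markers (x axis, from 0) in each vehicle fish (blue) and bortezomib fish (red). In each panel vehicle replicates 2, 3 and 8, which have the lowest neuron marker sums, are the lowest vehicle points, and bortezomib replicate 3 is the lowest treated point.

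By fish, the median deviation of the 50 members from the vehicle mean ran from 0.0063 to 0.25 on the log2 scale in bortezomib fish and from -0.053 to 0.087 in vehicle fish. Bortezomib replicate 2 was the highest and bortezomib replicates 1 and 3 lay among the vehicle fish. Bortezomib replicate 3 was the lowest treated fish in 15 of 50 members and bortezomib replicate 1 in 14, beside 18.7% and 12.1% of all tested genes.

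**Figure D5:**
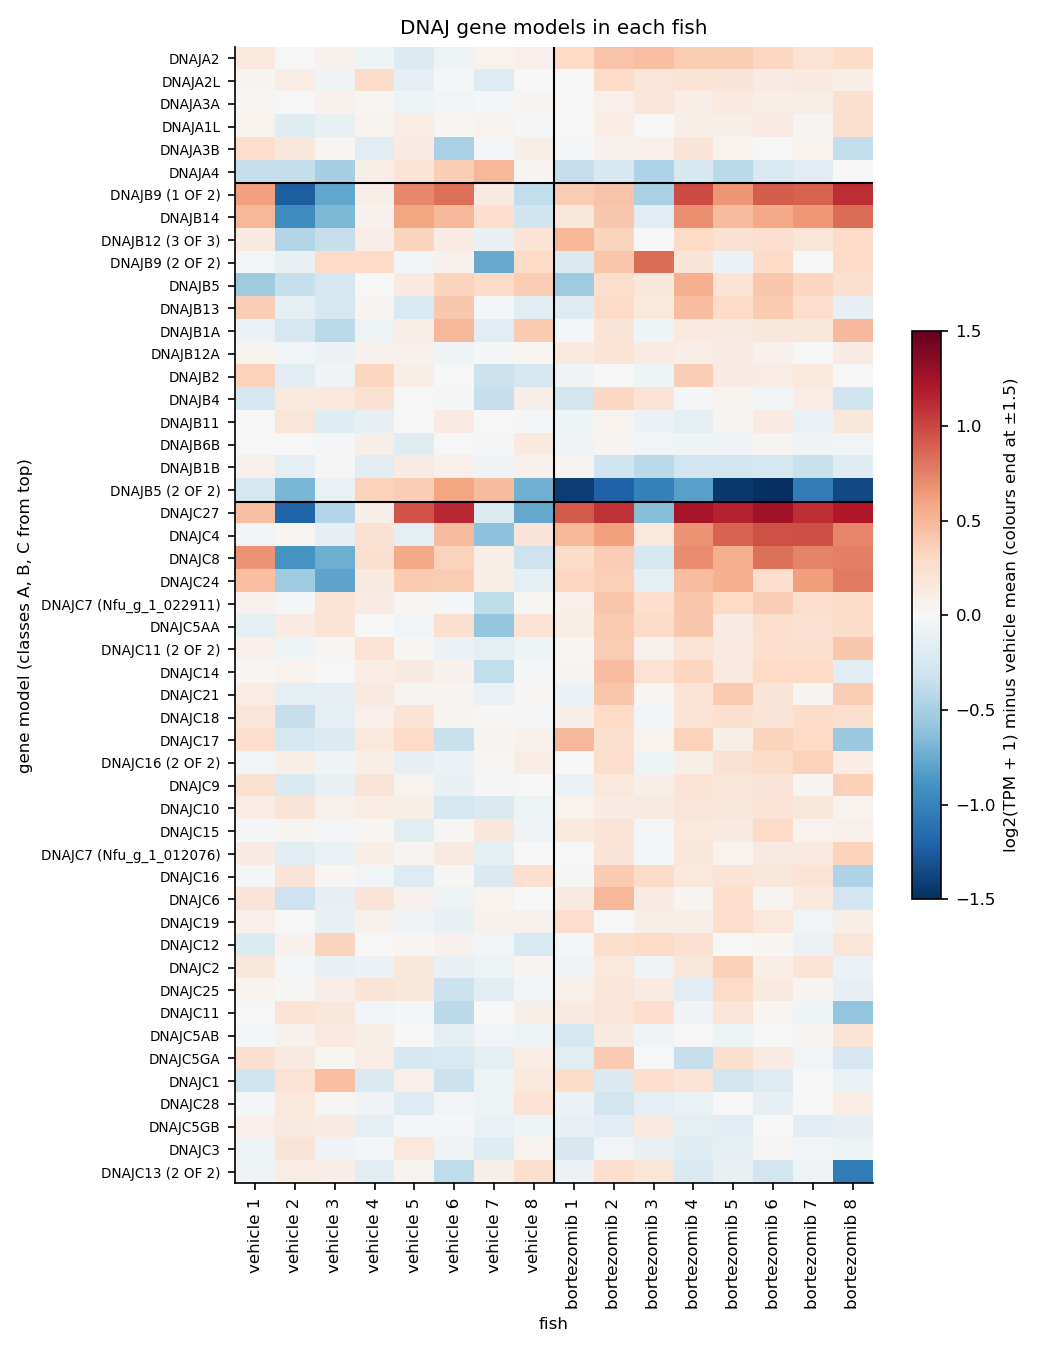
Log2(TPM + 1) of each of the 50 DNAJ models (rows, classes A, B and C from the top, sorted by fold change) in each fish (columns) minus the vehicle mean, with red above and blue below it and colours ending at 1.5. DNAJB5 (2 OF 2) is blue in all 8 bortezomib columns, DNAJA2 is pale red in all 8, and DNAJC27, DNAJB9 (1 OF 2), DNAJB14, DNAJC8 and DNAJC24 are blue in vehicle columns 2 and 3.

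Of the listed Hsp70 chaperones and their relatives, none of 16 tested models was called, and the median log2 fold change was -0.013. This list also holds HSPA12A, HSPA12B and the relatives HSPA4A, HSPA4B, HSPA4L and HYOU1. The last 4 were at 0.12, 0.13, 0.53 and -0.056 and are not counted with the exchange factors below. The largest change of the list was that of HSPA12A (Nfu_g_1_019320), at 0.76 (SE 0.24, limma adjusted p = 0.0835). The abundant model of HSPA8, the constitutive Hsp70, HSPA8 (Nfu_g_1_005309), was at 2846, 3137 and 3302 TPM against 2432, 3155 and 3774 TPM (-0.0075, SE 0.076, adjusted p = 0.965). A second HSPA8 model, HSPA8 (Nfu_g_1_000519), was at 7.61, 8.82 and 11.7 TPM against 8.77, 9.38 and 11.2 TPM (-0.018, adjusted p = 0.932). HSPA1A, the stress-inducible Hsp70, was low in both of its models.

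HSPA1A (Nfu_g_1_014930) was at 4.73, 8.57 and 11.9 TPM against 7.01, 10.5 and 32.1 TPM (-0.38, SE 0.23, adjusted p = 0.365), and HSPA1A (Nfu_g_1_023829) at 2.52, 3.45 and 5.09 TPM against 3.27, 4.10 and 6.22 TPM (-0.22, SE 0.14, adjusted p = 0.370). HSPA9, the Hsp70 of mitochondria, was at 82.4, 101 and 110 TPM against 93.8, 105 and 129 TPM (-0.13, SE 0.074, adjusted p = 0.323). Of the HSPA5 (BiP) models, HSPA5 (Nfu_g_1_006740) was at 88.3, 126 and 143 TPM against 121, 143 and 212 TPM (-0.28, SE 0.11, adjusted p = 0.155). HSPA5 (Nfu_g_1_006417) was at 37.9, 41.7 and 51.6 TPM against 19.3, 40.4 and 72.9 TPM (0.10, SE 0.19, adjusted p = 0.783). In all of these the groups overlapped.

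Among 14 further listed nucleotide exchange factors and other regulators of Hsp70, 1 rose and none fell, with a median of 0.10. Over all tested genes, 3.61% were called higher and 1.25% lower. STIP1 (HOP), which bridges Hsp70 and Hsp90 through TPR repeats, was at 74.2, 79.8 and 104 TPM in bortezomib fish and at 40.3, 56.5 and 79.3 TPM in vehicle fish. It rose by 0.57 (log2, SE 0.12, limma adjusted p = 0.0124). BAG1 had a larger log2 fold change, 0.75, but with a wider SE of 0.26 it was not called (adjusted p = 0.108). Its lowest vehicle fish were replicates 2, 3 and 8, at 27.5, 34.8 and 50.3 TPM. Its lowest treated fish was replicate 3, at 64.6 TPM. HSPA4L had the same lowest fish, as had the 6 DNAJ models above and 6.59% of all tested genes. The part of neuron content in the values of BAG1 and HSPA4L was not tested. BAG3, a stress-inducible exchange factor that directs Hsp70 clients to autophagy, was not called, at 17.3, 19.5 and 22.4 TPM against 18.7, 22.4 and 26.5 TPM (-0.21, SE 0.084, adjusted p = 0.153). None of 4 J-domain proteins with other names (SEC63, PAM16, HSCB and GAK) was called, with a median of 0.037. HSCB was at 0.26 (limma adjusted p = 0.0628). A last list held the Hsp90 system, small heat shock proteins and heat shock factors, together with HSPD1, HSPE1 and SERPINH1B. None of its 15 tested models was called, with a median of -0.082. Its log2 fold changes ran from -0.25 for HSPB8 (limma adjusted p = 0.317) to 0.45 for HSPB1 (adjusted p = 0.206). HSPB1 was at 130, 201 and 368 TPM against 127, 149 and 171 TPM. HSP90AB1 was at 0.19 (adjusted p = 0.199).

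Immediate early genes were set beside the DNAJ models that fell. In the same comparison, 13 of their 17 tested models were called lower and none higher, beside 1.25% and 3.61% of all tested genes. The list was chosen with earlier results of these data known, so this count is not an independent result. FOS was at 10.1, 14.2 and 18.1 TPM in bortezomib fish and at 27.1, 47.8 and 62.3 TPM in vehicle fish (-1.60, SE 0.18, limma adjusted p = 2.8e-05). Within a treatment group, the levels of DNAJB1B and DNAJB5 (2 OF 2) were related to those of HSPA1A (both models summed) and FOS over 8 fish each, in 8 relations. None passed, with adjusted p from 0.803 to 0.975 for Pearson's r and from 0.367 to 0.977 for Spearman's rho (two-sided exact permutation over pairings). With all 8 fish, the largest r was that of DNAJB5 (2 OF 2) with FOS in bortezomib fish (r = 0.63, exact p = 0.1003, rho = 0.57, exact p = 0.151), which was 0.42 without the 2 fish farthest from the median of FOS. The largest rho in size was that of DNAJB1B with FOS in bortezomib fish (rho = -0.74, exact p = 0.0458, r = -0.31, exact p = 0.466), where r was -0.41 without the 2 farthest fish. For DNAJB1B with HSPA1A in vehicle fish, r was 0.23 (exact p = 0.635) with all fish and -0.80 without the 2 farthest, so that its sign rests on those fish.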

How the data were processed

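RNA was sequenced from 16 individual brains, 8 per treatment. Per the submitters' processing notes, bcl2fastq 2.20.0.422 and STAR were used. Read counter, genome build and annotation: not given in the sources used here. Deposited by the authors were TPM values per gene model, which hold no absolute depth, so counting intervals cannot be given and low models are the least precise. Symbols come from the deposited table. Coordinates are left out because 0 of its identifiers are in RefSeq's gene table of the species.

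The 18529 models that reached 1 TPM in 8 or more fish entered limma 3.58.1 (R 4.3.3) on log2(TPM + 1) values, with a mean-dependent variance trend. Tests were two-sided, with Benjamini-Hochberg adjustment over all of them and a threshold of 0.05, without covariates. Fold changes are on this scale, which understates changes of low models. Python 3.11.15, scipy 1.17.1, numpy 2.4.6, pandas 2.3.3 and matplotlib 3.10.9 gave the exact permutation tests (12870 splits, 40320 pairings) and plots. The fit was tested on simulated data. Alternatives were other scalings, pseudocounts, filters, weights, variance estimates, a replicate block and leaving out fish. Replicate numbers did not pair the fish.

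Members, lists and tests were chosen with earlier results of these data known. Named in full were called members, the 8 uncalled members with the smallest p, the 2 most abundant members of each class, copies of called members, and the DNAJB1, DNAJB2, DNAJB5, DNAJB6, DNAJB9, DNAJB11, DNAJC3, DNAJC5, DNAJC6 and DNAJC7 models of classical roles, together 26. A further 3 were named after their values were seen, and 21 are given by range. Places in the cell are those of the mammalian proteins. The labels do not say whether libraries were prepared in batches. The p-values of group comparisons judge a difference against the spread between these fish, with no account of batches. Of the listed Hsp70-related genes, 1 is not reported here.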

Additional observations from a re-analysis of the deposited data

Results flagged for a closer look

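Of 58 groups of 8 fish tested for a single value far from the rest (Dixon's ratio of the gap to the range), 5 were found among the named DNAJ models, and 3 of 18 among the Hsp70 partners. Chance gives about 1 in 20. Bortezomib replicate 3 was lowest in DNAJC27, at 7.02 TPM with the next treated fish at 22.6. Bortezomib replicate 1 was highest in DNAJB1B, at 46.1 TPM with the next at 39.3, and lowest in DNAJB5, at 10.6 TPM with the next at 17.7. Bortezomib replicate 8 was highest in DNAJB1A, at 40.8 TPM with the next at 33.2. Vehicle replicate 7 was lowest in DNAJC7 (Nfu_g_1_022911), at 26.0 TPM with the next at 33.6.

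Among the partners, vehicle replicate 6 was highest in HSPA1A (Nfu_g_1_014930), at 32.1 TPM with the next at 12.5. Vehicle replicate 2 was highest in HSPA5 (Nfu_g_1_006740), at 212 TPM with the next at 159. Bortezomib replicate 2 was highest in HSPA5 (Nfu_g_1_006417), at 51.6 TPM with the next at 42.8.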

How the results depend on the processing

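The fall of DNAJB5 (2 OF 2) and the rise of DNAJA2 kept their direction and call in every alternative run, with log2 fold changes from -1.39 to -1.05 and from 0.24 to 0.39. The alternatives that leave out the pituitary-positive fish or use the first principal component were chosen after seeing the data. TPM gives no depth, and this limits models near 1 TPM most.

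Over the fits that left out 1 fish, 2 to 4 DNAJ models were higher and 1 to 2 lower, their median was 0.11 to 0.14, the partners gave 1 to 2 higher and 0 lower, 1 to 5 pairs of copies passed, and all genes gave 369 to 890 higher and 116 to 269 lower. In these fits the median over all tested genes ran from 0.018 without vehicle replicate 6 to 0.069 without bortezomib replicate 8. Without the pituitary-positive fish, all genes gave 259 higher and 66 lower, DNAJ models 1 and 1, and 1 pair of copies passed. All genes higher against lower, 669 against 232 as reported, were 537 against 388 with median-of-ratios scaling, 502 against 455 with upper-quartile scaling, 549 against 563 with quantile normalization and 1468 against 424 with sample quality weights. DNAJ models lower were 1 with median-of-ratios or upper-quartile scaling. Hsp70 partners were 4 higher with quality weights, 1 lower with quantile normalization, and 2 higher and 1 lower with the principal component. The model lower with quantile normalization was HSPA5 (Nfu_g_1_006740) (-0.38, limma adjusted p = 0.0474). That lower with the principal component was BAG3 (-0.31, adjusted p = 0.0374). The cause was not tested.

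Replicate numbers did not pair the fish (correlation above 0.1 in 3 of 8 pairs, and 0 of 8 fish best matched by their own number). With the replicate block, all genes gave 375 higher and 116 lower and DNAJ models 2 higher and 1 lower. The calls of DNAJC7 (Nfu_g_1_022911) and DNAJB1B ended there (adjusted p = 0.0825 and 0.0805).

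Models near 0 changed sign in some alternatives. DNAJB4 was at -0.025 with median-of-ratios scaling, -0.038 with upper-quartile scaling, -0.049 with quantile normalization, -0.0086 without the pituitary-positive fish and from -0.045 to 0.048 without single fish. DNAJC5AB was at -0.027, -0.040 and -0.046 under these scalings, -0.032 with quality weights, -0.029 without the pituitary-positive fish and from -0.028 to 0.039 without single fish. DNAJB11 was at 0.018 with quality weights, 0.014 without the pituitary-positive fish and from -0.028 to 0.023 without single fish. DNAJB2 was at -0.033 with the principal component. HSPA8 (Nfu_g_1_000519) was at 0.059 without the pituitary-positive fish, 0.072 with the principal component and from -0.058 to 0.022 without single fish. HSPA8 (Nfu_g_1_005309) was at 0.044 with quantile normalization, 0.040 with quality weights, 0.022 without the pituitary-positive fish and from -0.059 to 0.031 without single fish. HSPA5 (Nfu_g_1_006417) ranged from -0.037 to 0.23 without single fish.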
